A study of Homo sapiens with 31 samples.

Results

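The genes described here encode 39 proteins of the human centromere and kinetochore, the machinery that attaches chromosomes to spindle microtubules. They were chosen by name from a list of centromere and kinetochore components. No measured value entered that rule, but the list was drawn up with earlier results of these data known. All 39 were found among the 56269 gene names in the deposited count tables, and all 39 passed the filter on low counts that left 15787 genes for testing. MCF10A, an immortalised but not tumour-derived line of human breast epithelium, stops dividing when growth factors are withdrawn, and poly(A) RNA of these cells was sequenced. Every culture was first kept without serum, EGF and insulin for 2 to 3 days, and all released cells received full growth medium. Palbociclib, a drug that inhibits the cyclin D partners CDK4 and CDK6, was given at 1 µM from release for 9, 12, 15 or 24 h. The vehicle, 0.1% DMSO, was given for 3, 6, 9, 12, 15 or 24 h, and starved cells at 0 h received neither. The 31 libraries thus fall into 11 groups of 3 replicates, except that both 24 h groups had 2 (replicates 1 and 3). The labels do not say that replicates came from separate cultures, so a p-value reflects no more than how these libraries scatter, and that scatter may be technical.

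The kinetochore is built in layers on centromeric chromatin, which is marked by nucleosomes that hold the histone H3 variant CENP-A. The inner layer, the constitutive centromere-associated network (CCAN), binds CENP-A nucleosomes throughout the cell cycle. In mitosis the outer layer assembles on it, and the NDC80 complex in that layer grips microtubules, while the checkpoint proteins delay anaphase until chromosomes are attached. Many of the genes are known as cell cycle genes whose transcripts are low in quiescent cells and high in G2 and mitosis, a class that RB-family and DREAM complexes hold down in quiescence. RNA was pooled from whole cultures, so fewer cells in a cell cycle phase and less RNA per cell cannot be told apart in any value below.

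Library totals ran from 10342358 to 20878364 counts, and levels are given as CPM, a gene's counts over a TMM-scaled library size brought to one common total. Markers of basal mammary epithelium were present in every library, with KRT5 never below 2332 CPM. The leukocyte markers PTPRC, CD3E and CD68 never exceeded 0.254 CPM, nor did the endothelial markers CDH5 and VWF or the fibroblast marker COL3A1. Of the other markers, KDR (endothelial) reached 93.0 CPM with a median of 0.756 CPM, COL1A1 (fibroblast) stood at 10.7 to 29.3 CPM and PDGFRB at up to 0.667 CPM. The main axis of variation within groups held 27.5% of the within-group variance. On it, in 0 h and DMSO 3 to 15 h, replicate 2 scored 12.0 to 24.8 and replicate 3 scored -18.5 to -7.51. In DMSO 24 h and the 4 palbociclib groups replicate 3 scored 7.84 to 27.2, on the other side from replicate 3 of the remaining groups. The library farthest out was palbociclib 15 h replicate 1, at -31.6. The 2 libraries of a 24 h group mirror each other on such an axis, so it cannot tell which of them differs. Counts without replicate 3 of these last 5 groups, called the 5 libraries below, are given where they differ by over 1.5 times. Adjusted p-values are from edgeR's quasi-likelihood test with Benjamini-Hochberg adjustment over all 15787 genes, and a gene is called higher or lower at an adjusted p below 0.05. Fold changes are on the log2 scale with their standard errors, and gene spans are on GRCh38 as the deposited annotation columns give them.

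At 12, 15 and 24 h most of the kinetochore genes were lower with palbociclib than with DMSO. The median gap of the 39 widened with each later time. From 15 to 24 h the change in the gap was called for few genes, more negative in 7 and more positive in 1. At 9 h, 5 of 39 were lower with palbociclib than with DMSO, where 1.08% of all tested genes were lower. At 12 h, 30 were lower (4.81% of all tested genes), at 15 h 35 (8.79%) and at 24 h 36 (12.3%). None was higher at any of these times by this test, at an unadjusted p below 0.05 or by DESeq2. Of all tested genes, 0.114%, 0.83%, 2.15% and 5.76% were called higher at 9, 12, 15 and 24 h. With shares this small, the lack of higher genes among 39 does not set them apart from all genes. The median log2 fold change of the 39 was -0.506 at 9 h and -1.83 at 12 h, then -2.16 at 15 h and -2.71 at 24 h, against 0.004 to 0.015 for the median of all tested genes. Without the 5 libraries, 3 were lower at 9 h. The 3 not called at 24 h were CENPT, PMF1 and MAD1L1.

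**Figure D1:**
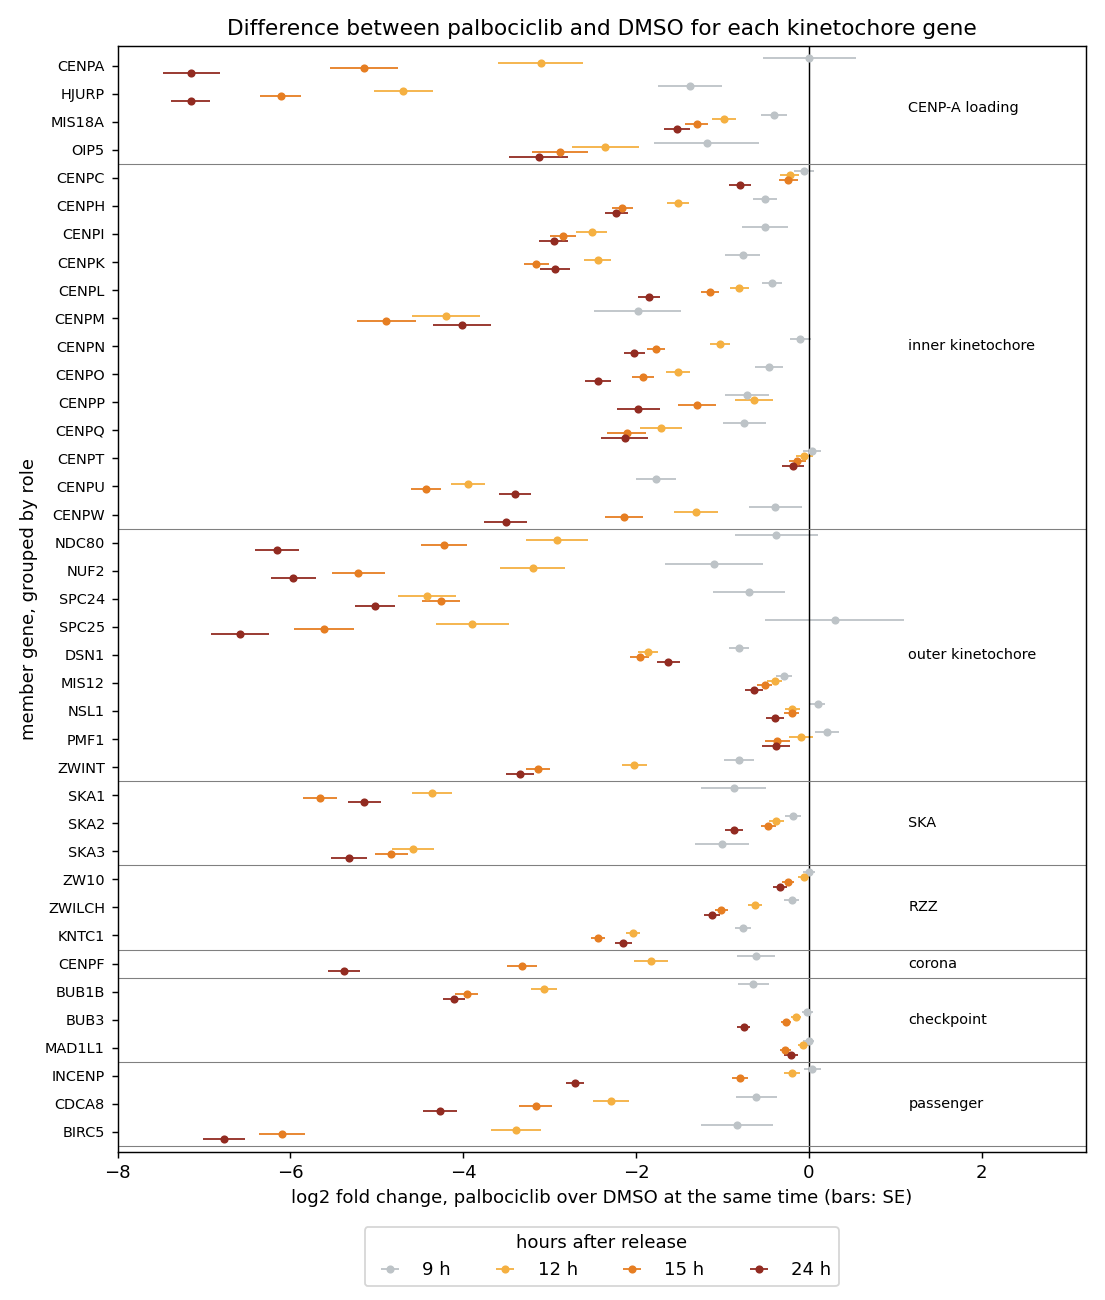
Log2 fold change of palbociclib over DMSO at the same time for each of the 39 genes, grouped by role, with standard errors as bars and 1 colour per time after release. Most points move left with time, to -7.15 for CENPA at 24 h, while CENPT, PMF1, NSL1, ZW10 and MAD1L1 stay between -0.39 and 0.21 at all times.

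With DMSO, more of the 39 genes were lower than higher than at 0 h in the first 6 h after release, and nearly all were higher at 15 and 24 h. At 3 h, 19 of 39 were lower than at 0 h (34.4% of all tested genes were lower) and 5 were higher (27.8%). At 6 h, 24 were lower (39.5%) and 8 higher (34.0%), and the median log2 fold change of the 39 was -0.613, against -0.077 for all tested genes. At 9 h, 16 were higher (35.3%) and 10 lower (39.9%), and the median of the 39 was 0.039, a value that turned negative with library totals (-0.034) and without DMSO 9 h replicate 2 (-0.163). At 12 h, 30 were higher (36.1%) and 4 lower (39.6%), and the 4 became 2 without replicate 1 of 0 h. At 15 h, 36 were higher (37.4%) and 1 lower (39.3%), and at 24 h 37 were higher (36.7%) and 1 lower (38.9%). The 1 lower gene at both times was CENPT, and neither call held when replicate 1 or 2 of 0 h was left out. The 15 h call was also lost without replicate 1 or 3 of DMSO 15 h, and the 24 h call without either DMSO 24 h library or the 5 libraries. The median of all genes at 3 h was -0.103 with TMM scaling and -0.271 when libraries were scaled by their totals, and 3 members were then higher at 3 h.

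**Figure D2:**
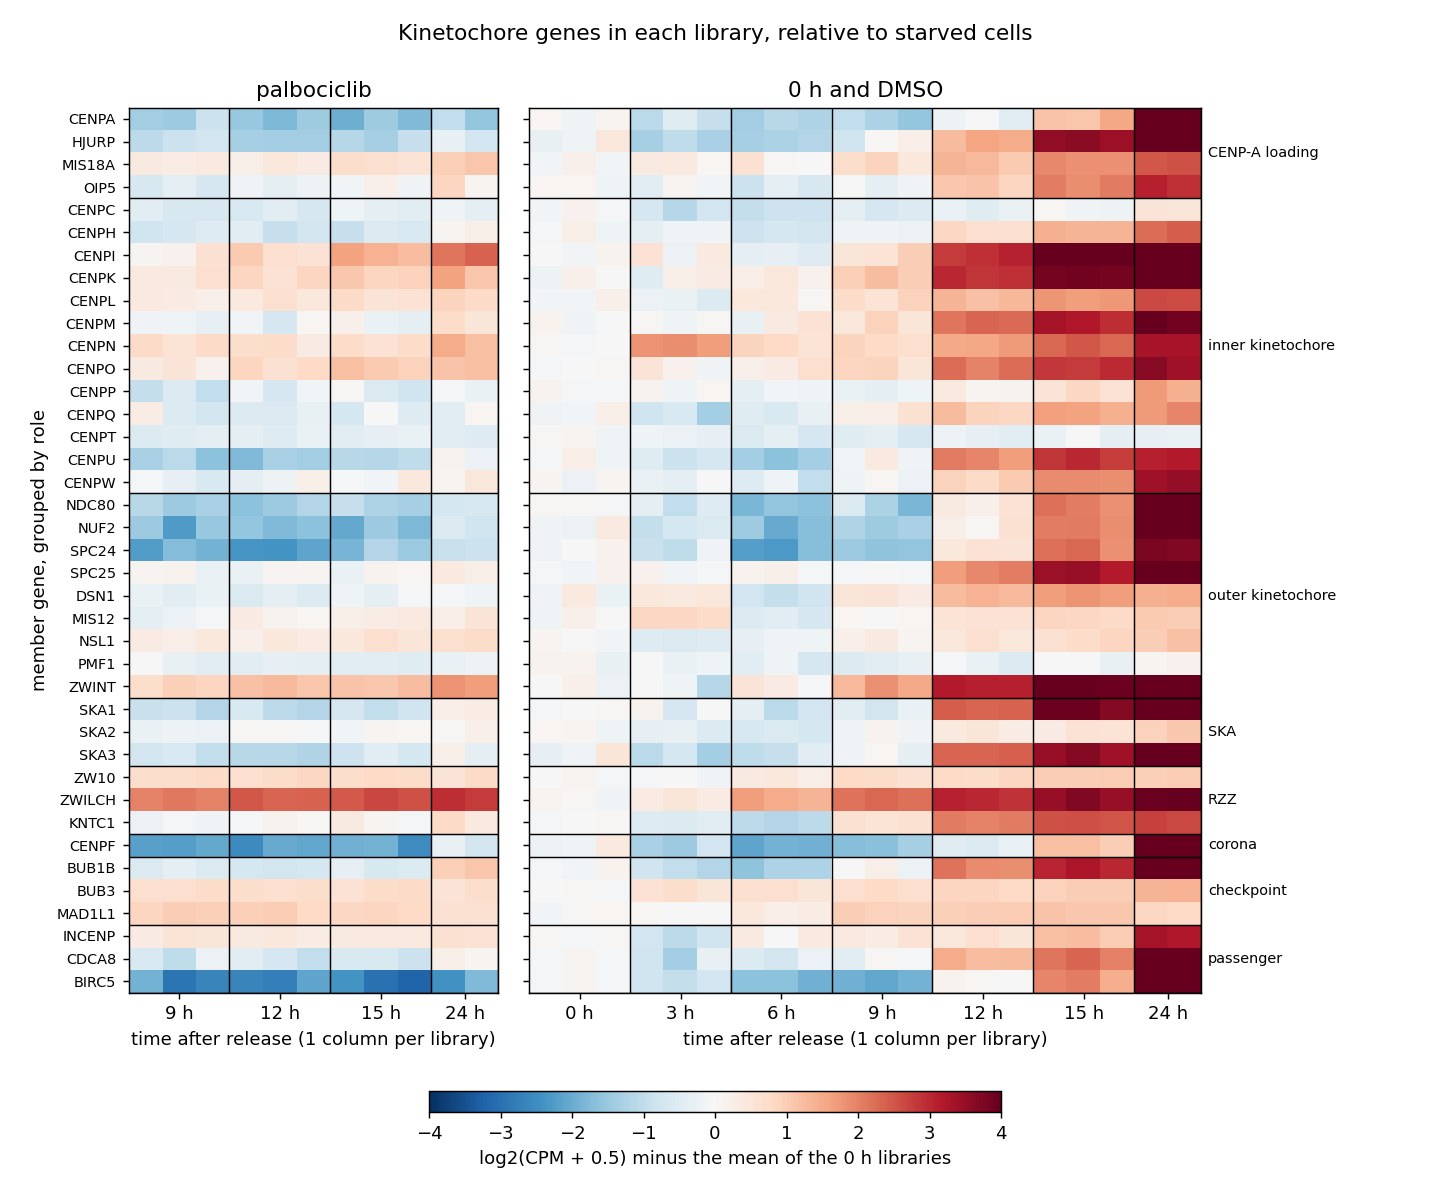
Level of each of the 39 genes in each of the 31 libraries, as log2(CPM + 0.5) minus the mean of the 0 h libraries, with palbociclib on the left and 0 h and DMSO on the right. Colours are capped at -4 and 4; most rows turn from blue at 6 h to red at 12 to 24 h with DMSO, whereas with palbociclib the rows of CENPA, NDC80, NUF2, SPC24, CENPF and BIRC5 are blue at 9 to 24 h.

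CENPA and HJURP had the largest fold changes of the 39 genes between palbociclib and DMSO at 24 h. With palbociclib at 24 h these rest on 5 and 2 reads of CENPA and 9 and 7 of HJURP. Their sizes, and their order among the genes with the largest fold changes, are thus limited by depth. CENPA and its 3 loading factors were all lower with palbociclib at 12, 15 and 24 h, and all higher with DMSO at 24 h than at 0 h. HJURP, the chaperone that delivers CENP-A to centromeres (chr2:233833416-233854566, minus strand), had 0.852 and 0.4804 CPM with palbociclib at 24 h, against 91.6 and 92.6 CPM with DMSO. Starved cells held 0.851, 0.9803 and 1.79 CPM. The palbociclib and 0 h libraries overlapped, and both DMSO libraries lay far above them, a log2 fold change of -7.15 ± 0.23 for palbociclib against DMSO (adjusted p = 7.54e-22). In the earlier palbociclib groups HJURP had 0.299, 0.414 and 0.478 CPM at 9 h, 0.164, 0.1495 and 0.139 CPM at 12 h and 0.256, 0.164 and 0.378 CPM at 15 h. In DMSO HJURP had 0.167, 0.322 and 0.169 CPM at 3 h, 0.156, 0.193 and 0.232 CPM at 6 h, 0.466, 1.22 and 1.498 CPM at 9 h, 3.53, 4.503 and 4.17 CPM at 12 h and 18.98, 19.8 and 17.1 CPM at 15 h. The DMSO values fell below those at 0 h by 3 h and were above every 0 h library by 12 h. CENPA itself, the histone variant, had 0.473 and 0.137 CPM with palbociclib at 24 h and 43.6 and 37.96 CPM with DMSO, against 1.505, 1.21 and 1.55 CPM in starved cells. All 11 palbociclib libraries held less CENPA than any starved library, and its log2 fold change against DMSO at 24 h was -7.15 ± 0.33 (adjusted p = 7.4e-18).

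MIS18A, a subunit of the Mis18 complex that licenses CENP-A loading (chr21:32268219-32279069, minus strand), differed least of the 4. It had 7.19 and 8.17 CPM with palbociclib at 24 h, against 21.7 and 22.8 CPM with DMSO and 3.21, 4.15 and 3.22 CPM at 0 h. The 3 groups did not overlap, so MIS18A with palbociclib lay between the other two. With palbociclib MIS18A had 4.63, 4.39 and 4.71 CPM at 9 h, 4.18, 4.84 and 4.53 CPM at 12 h and 6.05, 5.75 and 5.29 CPM at 15 h. In DMSO MIS18A had 4.58, 4.73 and 3.72 CPM at 3 h, 5.602, 3.61 and 3.55 CPM at 6 h, 6.06, 6.95 and 4.89 CPM at 9 h, 9.76, 9.38 and 7.73 CPM at 12 h and 14.5, 13.8 and 13.6 CPM at 15 h. Palbociclib against DMSO at 24 h gave a log2 fold change of -1.53 ± 0.15 (adjusted p = 1.76e-09). OIP5, its partner in the Mis18 complex, averaged 0.808 CPM with palbociclib at 24 h and 6.79 CPM with DMSO, but 38.0% of its exonic bases are shared with the antisense gene OIP5-AS1. Reads that fall on both were left uncounted.

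In the inner kinetochore, 12 of the 13 CCAN genes were lower with palbociclib at 24 h, and the median log2 fold change of the 13 was -2.23. CENPM, a CCAN subunit (chr22:41938721-41947164, minus strand), differed most of the 13. It had 0.852 and 0.618 CPM with palbociclib at 24 h, against 12.4 and 11.2 CPM with DMSO and 0.393, 0.231 and 0.298 CPM at 0 h. Palbociclib against DMSO gave -4.01 ± 0.34 (adjusted p = 3.34e-11) at 24 h. CENPM was low in every other palbociclib library, with 0.224, 0.207 and 0.137 CPM at 9 h, 0.246, 0 and 0.348 CPM at 12 h and 0.426, 0.164 and 0.126 CPM at 15 h. In DMSO CENPM had 0.333, 0.215 and 0.338 CPM at 3 h, 0.156, 0.5296 and 0.695 CPM at 6 h, 0.599, 1.01 and 0.631 CPM at 9 h, 3.02, 3.55 and 3.41 CPM at 12 h and 7.56, 6.88 and 5.73 CPM at 15 h. Palbociclib and DMSO libraries did not overlap at any of the 4 times. CENPM was also 1 of the 5 genes already lower with palbociclib at 9 h, a call that was lost when any of 5 of the 6 libraries at 9 h was left out (replicate 1 of DMSO was the exception).

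CENPT (chr16:67828157-67847811, minus strand), which together with CENPC recruits the outer kinetochore, was the exception among the 13. It had 21.2 and 19.9 CPM with palbociclib at 24 h, against 22.8 and 23.8 CPM with DMSO, and 29.7, 30.9 and 25.8 CPM at 0 h. The difference between palbociclib and DMSO, -0.19 ± 0.12, was not called (adjusted p = 0.343). Its other palbociclib libraries had 19.6, 20.6 and 21.7 CPM at 9 h, 22.4, 19.8 and 23.8 CPM at 12 h and 21.2, 22.5 and 24.01 CPM at 15 h. Its DMSO libraries had 25.3, 24.6 and 22.8 CPM at 3 h, 18.9, 21.8 and 17.98 CPM at 6 h, 20.2, 21.9 and 17.8 CPM at 9 h, 24.7, 22.7 and 20.7 CPM at 12 h and 23.95, 28.6 and 21.7 CPM at 15 h. The highest group mean, at 0 h, was 1.47-fold the lowest, at DMSO 6 h, the smallest span of the 39 genes. Of its exonic bases, 19.6% also belong to genes of the other strand, TSNAXIP1, THAP11 and NUTF2.

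Other CCAN genes moved early. CENPN, which binds the CENP-A nucleosome with CENPL, had 14.8, 15.4 and 13.3 CPM with DMSO at 3 h, against 3.99, 3.63 and 3.94 CPM at 0 h, a log2 fold change of 1.91 ± 0.12 (adjusted p = 6.88e-15). It was the one member at least 2-fold higher by 3 h, and at 6 h its libraries had 7.62, 7.08 and 5.87 CPM. It shares 12.8% of its exonic bases with genes of the other strand, among them CMC2. CENPU, which with CENPQ forms part of a docking site for the kinase PLK1, was lower with palbociclib already at 9 h. It had 0.971, 1.24 and 0.683 CPM with palbociclib at 9 h, against 2.86, 4.26 and 2.84 CPM with DMSO, without overlap, a log2 fold change of -1.77 ± 0.23 (adjusted p = 4.37e-06). At 24 h it had 3.503 and 2.61 CPM with palbociclib and 31.02 and 32.3 CPM with DMSO. CENPU shares 11.7% of its exonic bases with PRIMPOL on the opposite strand.

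The other 9 CCAN genes were all lower with palbociclib at 24 h, by amounts that ranged widely. CENPI and CENPW differed most among them, with log2 fold changes of -2.96 ± 0.16 and -3.51 ± 0.25. CENPW, the histone-fold partner of CENPT, had 1.23 and 1.72 CPM with palbociclib at 24 h, against 16.5 and 17.8 CPM with DMSO and 1.24, 0.865 and 1.25 CPM at 0 h. Its 0 h and palbociclib libraries did not overlap its DMSO libraries, while those of CENPT lay close together. CENPK, CENPH, CENPL and CENPO gave -2.94 ± 0.17, -2.23 ± 0.13, -1.85 ± 0.13 and -2.44 ± 0.15. CENPK and CENPH belong with CENPI and CENPM to one CCAN module, CENPL pairs with CENPN, and CENPO and CENPP pair with each other. CENPP and CENPQ gave -1.98 ± 0.25 and -2.13 ± 0.27. CENPC, the CCAN protein that binds both CENP-A nucleosomes and the MIS12 complex, gave the smallest of the 9, -0.80 ± 0.13 (adjusted p = 2.27e-05). Of these genes CENPP shares 39.5% of its exonic bases with other genes, among them IPPK and NOL8, and CENPO 31.4%, with ADCY3 and PTRHD1.

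In the outer kinetochore, the 4 NDC80 complex genes had larger fold changes between palbociclib and DMSO at 24 h than the 4 MIS12 complex genes. SPC25, an NDC80 complex subunit that anchors it to the inner layer (chr2:168834132-168913371, minus strand), had 0.284 and 0.206 CPM with palbociclib at 24 h, against 22.8 and 24.6 CPM with DMSO and 0.0654, 0.0577 and 0.179 CPM at 0 h. The palbociclib values rest on 6 reads over both libraries. A library with 0 reads of a gene allows up to 3, or 0.144 to 0.290 CPM depending on its depth, for counting error alone. The log2 fold change of palbociclib over DMSO was -6.58 ± 0.33 (adjusted p = 1.04e-16), and SPC25 was near the limit of detection in all starved and all palbociclib libraries. The other palbociclib libraries had 0.149, 0.155 and 0 CPM at 9 h, 0, 0.1495 and 0.139 CPM at 12 h and 0, 0.164 and 0.126 CPM at 15 h. In DMSO SPC25 had 0.167, 0.0537 and 0.0845 CPM at 3 h, 0.156, 0.193 and 0.0772 CPM at 6 h, 0.0666, 0.101 and 0.0788 CPM at 9 h, 1.41, 1.75 and 1.97 CPM at 12 h and 6.08, 6.17 and 4.84 CPM at 15 h. Every DMSO library from 12 h on stood above every starved library. NDC80, the microtubule-binding subunit that names the complex, was measurable in starved cells at 1.64, 1.61 and 1.43 CPM. It had 0.757 and 0.824 CPM with palbociclib at 24 h and 60.99 and 53.8 CPM with DMSO, a log2 fold change of -6.16 ± 0.25 (adjusted p = 4.82e-19). At 6 h with DMSO it had dropped to 0.0778, 0.193 and 0.154 CPM, below every starved library. NUF2 and SPC24, the other two subunits, gave -5.97 ± 0.26 and -5.02 ± 0.23 for palbociclib over DMSO at 24 h.

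PMF1, a MIS12 complex subunit (chr1:156212993-156240042, plus strand), differed least of the outer kinetochore genes. It had 9.66 and 10.2 CPM with palbociclib at 24 h, against 12.7 and 13.2 CPM with DMSO and 12.95, 12.97 and 9.37 CPM at 0 h. The groups at 24 h did not overlap, but the log2 fold change of -0.38 ± 0.17 was not called (adjusted p = 0.117). With palbociclib PMF1 had 11.4, 9.46 and 8.404 CPM at 9 h, 8.44, 9.17 and 9.06 CPM at 12 h and 8.52, 8.54 and 8.19 CPM at 15 h. In DMSO PMF1 had 11.5, 9.67 and 10.2 CPM at 3 h, 8.403, 10.2 and 7.101 CPM at 6 h, 7.73, 8.32 and 9.304 CPM at 9 h, 11.05, 9.64 and 7.73 CPM at 12 h and 11.5, 11.5 and 9.45 CPM at 15 h. PMF1 shares 23.3% of its exonic bases with the readthrough gene PMF1-BGLAP, and reads there were left uncounted as ambiguous. The other MIS12 complex genes were lower with palbociclib at 24 h by smaller amounts than the NDC80 complex genes, with -1.63 ± 0.14 for DSN1, -0.64 ± 0.10 for MIS12 and -0.39 ± 0.10 for NSL1. The NSL1 call was lost without palbociclib replicate 1, without DMSO replicate 3 and without the 5 libraries. ZWINT, which binds the scaffold KNL1, averaged 8.22 CPM with palbociclib at 24 h and 83.3 CPM with DMSO, and was 1 of the 5 genes already lower at 9 h (-0.81 ± 0.17, adjusted p = 0.00699; not called without palbociclib replicate 1, DMSO replicate 2 or the 5 libraries). DSN1 was another of the 5 (-0.81 ± 0.12, adjusted p = 2.9e-05).

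Within the SKA complex, which holds kinetochores on depolymerising microtubules, all 3 genes were lower with palbociclib at 24 h, SKA1 with -5.15 ± 0.19 on the log2 scale. SKA3 (chr13:21153595-21176602, minus strand) had 1.799 and 1.03 CPM with palbociclib at 24 h, against 53.1 and 56.4 CPM with DMSO and 1.05, 1.27 and 2.21 CPM at 0 h, a log2 fold change of -5.32 ± 0.21 against DMSO (adjusted p = 1.55e-19). Its palbociclib libraries had 0.673, 0.775 and 0.478 CPM at 9 h, 0.4096, 0.399 and 0.348 CPM at 12 h and 0.596, 0.9304 and 0.693 CPM at 15 h. Its DMSO libraries had 0.417, 0.698 and 0.254 CPM at 3 h, 0.467, 0.5296 and 0.926 CPM at 6 h, 1.27, 1.57 and 1.03 CPM at 9 h, 9.38, 9.22 and 9.63 CPM at 12 h and 21.3, 24.1 and 20.02 CPM at 15 h. Starved and palbociclib libraries overlapped at 24 h, and DMSO libraries exceeded all of them from 12 h. SKA2 (chr17:59109951-59155269, minus strand) had 32.9 and 36.6 CPM with palbociclib at 24 h, against 60.02 and 67.2 CPM with DMSO and 33.2, 34.3 and 27.9 CPM at 0 h, and -0.87 ± 0.11 on the log2 scale (adjusted p = 1.61e-07). Earlier it had 26.5, 27.7 and 26.6 CPM at 9 h, 32.9, 32.9 and 29.96 CPM at 12 h and 29.2, 34.2 and 33.2 CPM at 15 h with palbociclib. With DMSO it had 25.2, 25.6 and 21.3 CPM at 3 h, 20.0, 21.2 and 19.1 CPM at 6 h, 27.8, 34.7 and 28.9 CPM at 9 h, 41.3, 44.3 and 38.7 CPM at 12 h and 40.3, 47.03 and 46.7 CPM at 15 h. SKA2 libraries with palbociclib at 24 h overlapped those at 0 h, and both DMSO libraries at 24 h lay above them.

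The 3 genes of the RZZ complex, which brings dynein and checkpoint proteins to unattached kinetochores, were all lower with palbociclib at 24 h. KNTC1, which encodes the human ROD subunit (chr12:122527246-122626396, plus strand), had 23.9 and 17.98 CPM with palbociclib at 24 h, against 94.8 and 88.7 CPM with DMSO and 13.02, 13.8 and 14.3 CPM at 0 h. Palbociclib against DMSO gave -2.15 ± 0.10 (adjusted p = 5.22e-18). Both palbociclib libraries at 24 h lay above the starved libraries and far below DMSO. With palbociclib KNTC1 had 11.7, 12.9 and 12.02 CPM at 9 h, 12.9, 15.1 and 14.3 CPM at 12 h and 17.8, 14.7 and 13.4 CPM at 15 h. In DMSO KNTC1 had 9.34, 9.29 and 10.1 CPM at 3 h, 6.302, 5.78 and 6.33 CPM at 6 h, 21.05, 20.2 and 21.1 CPM at 9 h, 59.6, 56.2 and 58.7 CPM at 12 h and 82.2, 84.4 and 79.9 CPM at 15 h. Its groups were already apart at 9 h, when it was 1 of the 5 lower genes (-0.76 ± 0.09, adjusted p = 7.31e-07), and its DMSO level at 15 h was 89.6% of that at 24 h. ZW10, the subunit that also acts in membrane traffic (chr11:113733187-113773811, minus strand), had 35.2 and 41.5 CPM with palbociclib at 24 h, against 47.1 and 50.1 CPM with DMSO and 23.8, 26.4 and 22.9 CPM at 0 h. Its log2 fold change of -0.34 ± 0.08 against DMSO (adjusted p = 0.00281) was not called without palbociclib replicate 1 or DMSO replicate 3. With palbociclib ZW10 had 39.5, 39.5 and 41.95 CPM at 9 h, 39.1, 40.6 and 43.2 CPM at 12 h and 39.7, 42.96 and 40.8 CPM at 15 h. In DMSO ZW10 had 23.1, 24.1 and 21.97 CPM at 3 h, 31.7, 32.9 and 29.4 CPM at 6 h, 42.4, 40.9 and 37.5 CPM at 9 h, 42.7, 40.9 and 44.3 CPM at 12 h and 48.1, 48.5 and 49.7 CPM at 15 h. It was above every 0 h library from 6 h on, with or without the drug.

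ZWILCH, the third RZZ subunit, rose early and rose with palbociclib too. It had 36.9 and 32.7 CPM with palbociclib at 24 h, against 74.5 and 76.2 CPM with DMSO, and both stood far above the 4.65, 4.498 and 3.82 CPM of starved cells. The log2 fold change of palbociclib at 24 h was 3.00 ± 0.11 over 0 h (adjusted p = 6.81e-21) and -1.12 ± 0.09 over DMSO (adjusted p = 2.29e-11). It was at least 2-fold above 0 h with DMSO by 6 h. ZWILCH shares 10.9% of its exonic bases with LCTL and RPL4 on the opposite strand.

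CENPF (chr1:214603195-214664588, plus strand), a large protein of the fibrous corona that forms on the outside of mitotic kinetochores, had the highest level per length of the 39 with DMSO at 24 h, 61.1 CPM per kb of exon. It had 20.1 and 14.8 CPM with palbociclib at 24 h, against 785 and 644 CPM with DMSO and 21.1, 22.4 and 32.8 CPM at 0 h. Palbociclib over DMSO was -5.38 ± 0.18 (adjusted p = 3.88e-21). Both palbociclib libraries at 24 h lay just below every starved library. With palbociclib CENPF had 5.16, 5.07 and 5.603 CPM at 9 h, 3.85, 5.78 and 5.504 CPM at 12 h and 6.22, 6.403 and 4.097 CPM at 15 h. In DMSO CENPF had 9.84, 8.81 and 14.5 CPM at 3 h, 5.37, 6.35 and 6.18 CPM at 6 h, 7.26, 7.56 and 9.698 CPM at 9 h, 17.8, 16.7 and 20.8 CPM at 12 h and 58.3, 58.3 and 49.4 CPM at 15 h. CENPF in all 3 DMSO libraries at 12 h was still below every starved library, and at 15 h it had reached 7.74% of its 24 h mean, the lowest share of the 39.

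Of the 3 checkpoint genes, BUB1B and BUB3 were lower with palbociclib at 24 h and MAD1L1 was not called. At 15 h all 3, MAD1L1 among them, were lower with palbociclib than with DMSO. BUB1B, which encodes the checkpoint protein BubR1 (chr15:40161023-40221136, plus strand), had 5.68 and 6.38 CPM with palbociclib at 24 h, against 99.01 and 109.8 CPM with DMSO and 2.62, 2.48 and 2.98 CPM at 0 h. Palbociclib over DMSO was -4.10 ± 0.13 (adjusted p = 4.11e-22). Both palbociclib libraries at 24 h exceeded every starved library. With palbociclib BUB1B had 1.64, 1.96 and 1.64 CPM at 9 h, 1.47, 1.396 and 1.46 CPM at 12 h and 2.04, 1.53 and 1.702 CPM at 15 h. In DMSO BUB1B had 1.33, 1.13 and 0.9296 CPM at 3 h, 0.545, 0.867 and 0.849 CPM at 6 h, 2.66, 3.25 and 2.21 CPM at 9 h, 13.8, 11.3 and 11.1 CPM at 12 h and 25.8, 29.7 and 25.2 CPM at 15 h. BUB1B shares 10.2% of its exonic bases with the readthrough gene BUB1B-PAK6. MAD1L1, which holds MAD2 at unattached kinetochores (chr7:1815793-2233243, minus strand), had 26.9 and 26.4 CPM with palbociclib at 24 h, against 30.8 and 30.6 CPM with DMSO and 15.9, 17.8 and 18.4 CPM at 0 h. The log2 fold change of -0.20 ± 0.08 over DMSO was not called (adjusted p = 0.074). All 4 libraries at 24 h lay above every starved library. With palbociclib MAD1L1 had 31.8, 34.8 and 33.7 CPM at 9 h, 33.7, 35.2 and 30.4 CPM at 12 h and 31.02, 31.7 and 30.6 CPM at 15 h. In DMSO MAD1L1 had 18.1, 17.5 and 17.1 CPM at 3 h, 23.3, 20.99 and 21.6 CPM at 6 h, 35.03, 33.2 and 32.5 CPM at 9 h, 33.7, 34.8 and 35.8 CPM at 12 h and 39.1, 36.8 and 36.9 CPM at 15 h. MAD1L1 was thus at its highest at DMSO 15 h, and it was the one member called lower at DMSO 24 h than at DMSO 15 h (-0.29 ± 0.07, adjusted p = 0.00147). Without the low count filter no member was called lower there, and with the libraries of the comparison alone 2 were. BUB3, a partner of BUB1B, averaged 157 CPM with palbociclib at 24 h and 265 CPM with DMSO, against 102 CPM at 0 h.

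All 3 chromosomal passenger genes, whose products target and activate Aurora B kinase, were lower with palbociclib at 24 h. BIRC5, which encodes survivin (chr17:78214186-78225636, plus strand), had 0.568 and 1.17 CPM with palbociclib at 24 h, against 99.6 and 101 CPM with DMSO and 4.97, 5.59 and 5.07 CPM at 0 h. The log2 fold change of palbociclib at 24 h was -6.77 ± 0.24 over DMSO (adjusted p = 1.41e-20) and -2.51 ± 0.32 over starved cells (adjusted p = 2.49e-08). With palbociclib BIRC5 had 1.05, 0.258 and 0.4099 CPM at 9 h, 0.4096, 0.349 and 0.836 CPM at 12 h and 0.596, 0.219 and 0.126 CPM at 15 h. In DMSO BIRC5 had 2.75, 2.42 and 2.87 CPM at 3 h, 1.32, 1.35 and 1.003 CPM at 6 h, 0.999, 0.862 and 1.03 CPM at 9 h, 5.84, 5.46 and 5.15 CPM at 12 h and 21.4, 22.97 and 15.2 CPM at 15 h. The DMSO libraries lay below every starved library from 3 to 9 h and above them all at 15 h. INCENP, the scaffold of the complex (chr11:62123973-62153163, plus strand), differed least of the 3. It had 21.3 and 20.8 CPM with palbociclib at 24 h, against 143 and 131 CPM with DMSO and 14.3, 12.9 and 14.1 CPM at 0 h, and -2.70 ± 0.11 over DMSO (adjusted p = 1.44e-19). With palbociclib INCENP had 17.3, 20.2 and 19.5 CPM at 9 h, 17.7, 18.4 and 16.8 CPM at 12 h and 17.8, 18.01 and 18.1 CPM at 15 h. In DMSO INCENP had 7.92, 6.34 and 7.69 CPM at 3 h, 17.7, 13.9 and 18.1 CPM at 6 h, 18.3, 17.1 and 20.6 CPM at 9 h, 18.9, 22.3 and 19.5 CPM at 12 h and 32.5, 32.99 and 27.99 CPM at 15 h. At 9 h palbociclib and DMSO libraries overlapped, and from 12 h they did not, although the difference was first called at 15 h (-0.80 ± 0.09, adjusted p = 4.84e-08). CDCA8, which encodes borealin, averaged 3.73 CPM with palbociclib at 24 h and 71.6 CPM with DMSO.

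**Figure D3:**
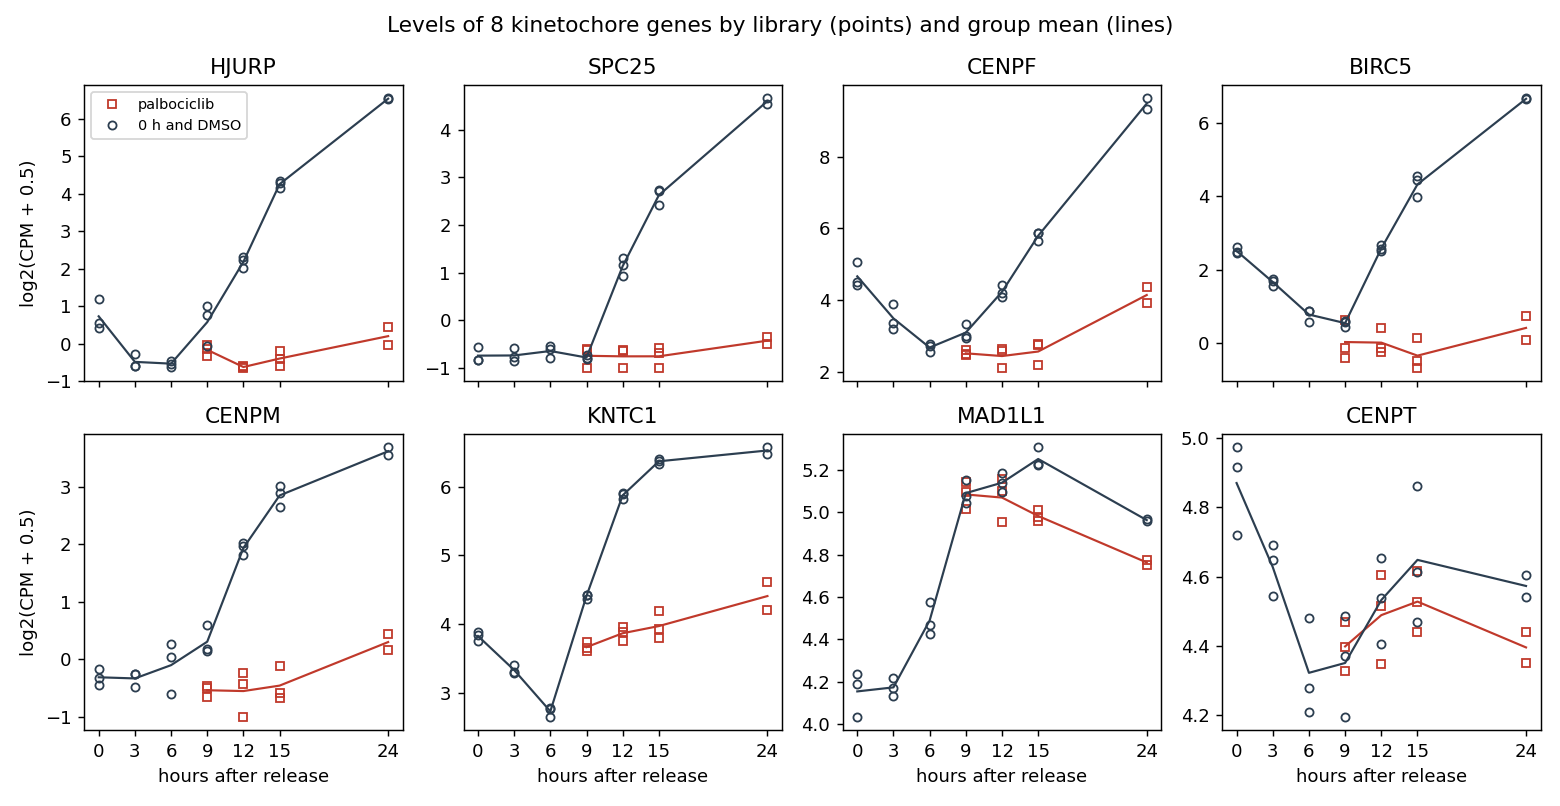
Levels of 8 genes as log2(CPM + 0.5) against hours after release, with 1 point per library and lines through group means; each panel has its own vertical scale. HJURP, SPC25, CENPF and BIRC5 reach their highest level with DMSO at 24 h and stay near or below their 0 h level with palbociclib. Over 0 h and DMSO, the highest group mean was 2.17-fold the lowest for MAD1L1 and 1.47-fold for CENPT.

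The drug effect itself changed with time. From 9 to 15 h it became more negative in 28 of 39 genes (3.91% of all tested genes) and more positive in none by edgeR, at an unadjusted p below 0.05 or by DESeq2 (0.133%). The median change in the log2 fold change was -1.68. The largest were -5.91 ± 1.09 for SPC25, -5.26 ± 0.63 for BIRC5 and -5.15 ± 0.78 for CENPA. SPC25 had at most 3 reads in each library at 9 h and in each palbociclib library at 15 h. With palbociclib at 15 h CENPA had at most 4 and BIRC5 had 7, 4 and 2, so the sizes of all these changes are limited by depth. From 15 to 24 h it became more negative in 7 genes (1.92%) and more positive in 1 (1.06%). The 7 were CENPF (-2.06 ± 0.27), NDC80 (-1.93 ± 0.52), INCENP (-1.91 ± 0.14), CENPW (-1.37 ± 0.36), CDCA8 (-1.11 ± 0.31), CENPL (-0.70 ± 0.17) and BUB3 (-0.49 ± 0.10). They became 3 without palbociclib 24 h replicate 1, 4 without replicate 3 of that group and 3 without the 5 libraries. The 1 more positive gene was CENPU (1.04 ± 0.29, adjusted p = 0.0463), whose call was lost when any of 9 of the 10 libraries at 15 and 24 h was left out, the exception being replicate 3 of DMSO 15 h, and was not made by DESeq2.

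Set against starved cells, members of the palbociclib groups went both ways, with a median log2 fold change of the 39 genes of -0.372 at 9 h and -0.396 at 12 h, then -0.24 at 15 h and 0.394 at 24 h. Against 0 h, 12 were higher and 20 lower at 9 h (34.9% and 40.8% of all tested genes), 13 and 18 at 12 h (35.0% and 40.4%), and 14 and 17 at 15 h (35.1% and 39.9%). The share of higher genes among the 39 was 30.8%, 33.3% and 35.9% at these times, near that of all genes. The share of lower genes was 51.3%, 46.2% and 43.6%, above that of all genes each time and most so at 9 h. At 24 h, 17 were higher (34.3%) and 9 lower (36.9%). The 9 lower genes were CENPA, HJURP, CENPC, CENPT, NDC80, NUF2, SPC24, CENPF and BIRC5. Without palbociclib 24 h replicate 3, or without the 5 libraries, 4 were lower (CENPA, CENPT, SPC24 and BIRC5). Because these comparisons and those of DMSO with 0 h share the 0 h libraries, they are not independent. The summed level of the 39 genes was 559 ± 9.56 CPM with palbociclib at 24 h and 2730 ± 92.9 CPM with DMSO (SD, n = 2 each), against 408 ± 15.6 CPM at 0 h (SD, n = 3). The sum leans on a few genes of high level. BUB3 alone made up 26.6% and 29.6% of it with palbociclib at 24 h and 24.7% to 25.7% at 0 h. With DMSO at 24 h BUB3 made up 9.34% and 10.1%, and CENPF 28.1% and 24.2%. In 16 genes the palbociclib mean at 24 h was under 10% of the DMSO mean, in 14 it was between 10 and 50%, and in 9 it was over 50%. Some genes did climb with the drug between 15 and 24 h, in a comparison added after the values had been seen. There 15 were higher at 24 h (11.2% of all tested genes) and 1, MAD1L1, was lower (9.31%). BUB1B rose by 1.81 ± 0.18 (adjusted p = 4.97e-09) and CENPF by 1.63 ± 0.22 (adjusted p = 1.54e-06). The 15 became 9 without palbociclib 24 h replicate 1 and 7 without the 5 libraries, and the MAD1L1 call was lost without either palbociclib 24 h library.

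The rise with DMSO had not ended at 15 h for most genes. At 24 h, 29 of 39 were higher than at 15 h (16.5% of all tested genes) and 1 was lower (13.0%), with a median log2 fold change of 0.92. This comparison shares the DMSO 24 h libraries with the drug comparison at 24 h. At 15 h, 10 genes were under 30% of their 24 h mean, among them CENPF, CENPA, NDC80, NUF2 and BIRC5, and 14 were over 70%, among them KNTC1, CENPU, CENPK, MIS12 and ZW10. The first time at which a gene was called and at least 2-fold above 0 h was 3 h for 1 gene (CENPN), 6 h for 1 (ZWILCH), 9 h for 4 (CENPI, CENPK, CENPM and ZWINT), 12 h for 15, 15 h for 9 and 24 h for 5. For CENPC, CENPT, PMF1 and ZW10 there was none. DSN1 had 31.2 and 33.05 CPM with DMSO at 24 h, against 37.5, 40.5 and 37.4 CPM at 15 h, its highest group.

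**Figure D4:**
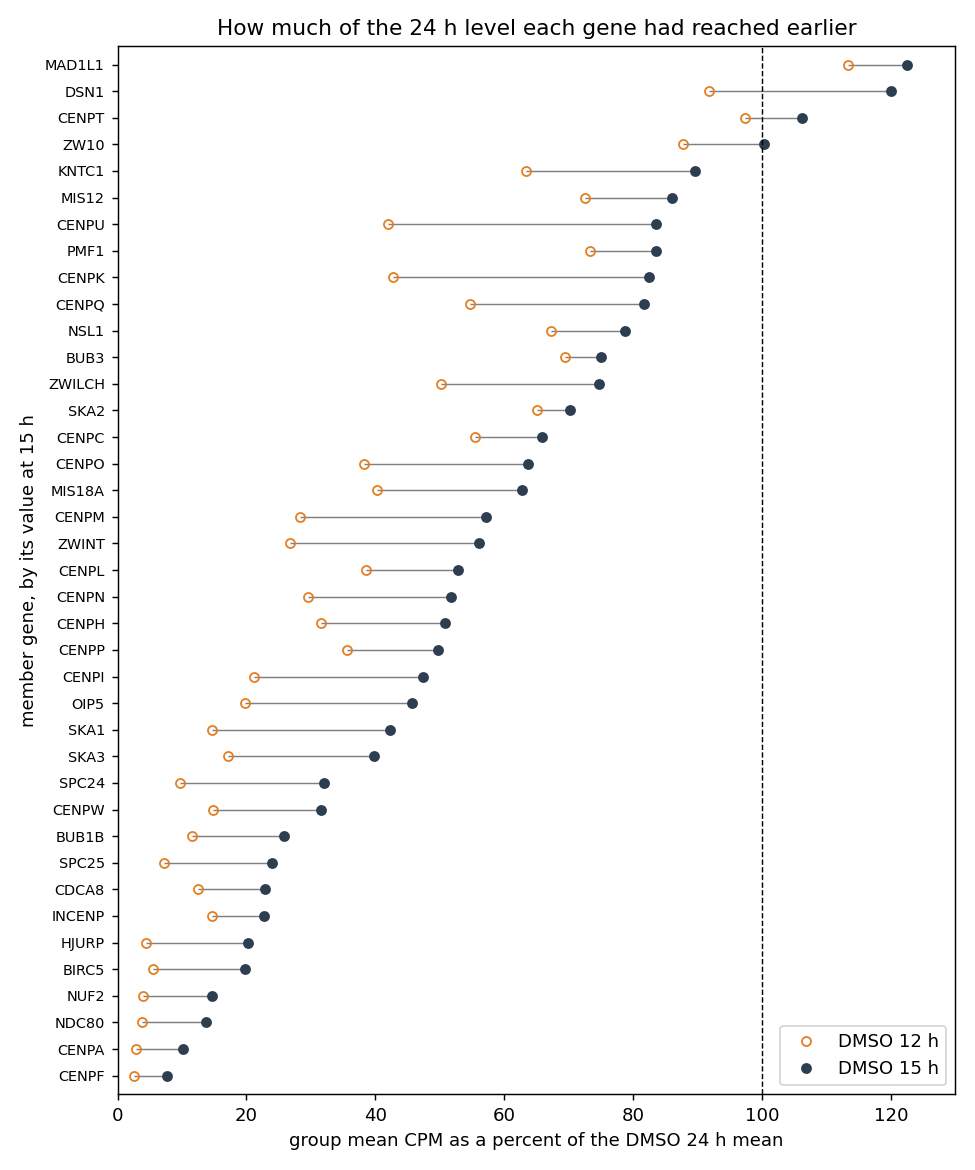
Group mean CPM with DMSO at 12 h (open circles) and 15 h (filled circles) as a percent of the DMSO 24 h mean, with genes ordered by the 15 h value. CENPF and CENPA stand lowest at 7.74% and 10.2% at 15 h, and MAD1L1 and DSN1 stand above 100% at 123% and 120%.

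The 16 genes called and at least 2-fold higher at DMSO 24 h than at 15 h are called late here. They were chosen on these values, so what follows is a description with no test. Just inside the 2-fold line were CENPI (1.08) and OIP5 (1.13), and just outside it CENPP (0.99) and CENPH (0.98). RefSeq promoter windows on GRCh38.p14, from 250 bases before to 50 after the start, were at hand for 32 of the 39 genes. The cell cycle genes homology region (CHR), the element through which DREAM and B-MYB complexes are known to act, was searched as TTTGAA or TTCGAA on both strands. A gene was counted once if any of its windows held it. It was found in 18 of 32 genes (56.3%), against 15.9% of 10498 tested genes with a window. Of the late genes with a window 13 of 15 held it, and of the other genes 5 of 17. Within 50 bases of the start, 12 of 15 and 3 of 17 held it, against 5.01% of tested genes. CCAAT boxes were found in 21 of 32 (65.6%, against 42.9%) and the E2F motifs TTTCCCGC, TTTCGCGC, TTTGCCGC and TTTGGCGC in 4 of 32 (12.5%, against 6.54%). Matches of 2 motifs may overlap at their ends, as in CDCA8, where the CHR letters from -23 end on the first base of a CCAAT box on the other strand. A match describes the letters and not a bound site.

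Shown are the 150 bases from 100 before to 50 after the start. They are given for 4 late genes that carry the element and 2 other genes that do not. These genes were picked by both traits, so they cannot show how often the traits go together. The late gene BUB1B was first 2-fold above 0 h at 12 h, as was MIS18A, which is not late. Capitals mark CHR letters on either strand, and position 1 is the start base. The windows are chr2:26785956-26786105 (plus strand) for CENPA, chr18:2571457-2571606 (plus strand) for NDC80, chr15:40160969-40161118 (plus strand) for BUB1B, chr11:62123911-62124060 (plus strand) for INCENP, chr5:65563119-65563268 (minus strand) for CENPK and chr16:67847644-67847793 (minus strand) for CENPT, all on GRCh38.p14, and each is written in the direction of transcription.
CENPA: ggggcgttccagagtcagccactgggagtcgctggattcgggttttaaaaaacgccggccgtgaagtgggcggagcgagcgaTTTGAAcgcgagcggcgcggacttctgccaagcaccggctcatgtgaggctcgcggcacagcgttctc
NDC80: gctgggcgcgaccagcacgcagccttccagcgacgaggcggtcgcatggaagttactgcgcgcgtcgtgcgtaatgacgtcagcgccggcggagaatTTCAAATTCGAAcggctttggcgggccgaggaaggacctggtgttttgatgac
BUB1B: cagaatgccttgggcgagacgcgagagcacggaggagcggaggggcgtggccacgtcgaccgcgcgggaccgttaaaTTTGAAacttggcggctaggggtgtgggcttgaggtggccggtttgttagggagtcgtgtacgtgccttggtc
INCENP: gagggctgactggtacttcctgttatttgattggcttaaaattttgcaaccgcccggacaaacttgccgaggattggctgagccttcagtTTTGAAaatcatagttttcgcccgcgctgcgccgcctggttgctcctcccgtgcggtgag
CENPK: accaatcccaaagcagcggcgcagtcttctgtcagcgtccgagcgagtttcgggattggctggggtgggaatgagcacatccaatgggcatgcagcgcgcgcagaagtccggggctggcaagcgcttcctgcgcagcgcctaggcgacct
CENPT: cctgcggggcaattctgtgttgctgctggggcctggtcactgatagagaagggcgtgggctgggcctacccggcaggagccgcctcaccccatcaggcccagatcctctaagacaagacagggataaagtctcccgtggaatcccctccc
In CENPA the element begins at -18, in BUB1B at -23 and in INCENP at -10. In NDC80 it occurs at -3 and, on an adjoining stretch, at 4. CENPK, which was first 2-fold above 0 h at 9 h, and CENPT, which never was, hold no CHR letters in their windows. The split was not complete. CENPN, the first to rise, holds the element at 4, ZWINT, first 2-fold above 0 h at 9 h, holds it near the start, and the late genes CENPI and SPC24 hold none.

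Levels per kilobase of exon allow the subunits of a complex to be set side by side, with the limit that the annotated exons of a gene can be longer than any single transcript of it. In the NDC80 complex the 4 subunits lay between 0.133 and 0.475 CPM per kb with palbociclib at 24 h and between 12.9 and 18.7 with DMSO, against 0.0547 to 1.02 at 0 h. In the MIS12 complex, which links the NDC80 complex to the inner layer, they lay between 3.82 and 9.10 CPM per kb with palbociclib at 24 h and between 5.13 and 12.4 with DMSO, against 4.26 to 6.05 at 0 h. The MIS12 complex thus had more RNA per length than the NDC80 complex in starved cells and with palbociclib at all 4 times, and less with DMSO at 24 h. The subunits lay closest together with DMSO at 24 h. In the NDC80 complex the highest level was 3.57-fold the lowest with palbociclib at 24 h and 1.45-fold with DMSO, against 18.6-fold at 0 h. In starved cells and with palbociclib at 24 h the lowest subunit was SPC25, with at most 3 reads per library. The ratios in those groups are thus limited by depth. With palbociclib at 12 h, when all 4 subunits had few reads, the highest level was 1.53-fold the lowest. In the SKA complex it was 23.8-fold with palbociclib and 1.12-fold with DMSO, against 23.8-fold at 0 h. In the chromosomal passenger complex it was 20.7-fold with palbociclib and 1.17-fold with DMSO, against 2.32-fold at 0 h. The MIS12 complex was the exception, with 2.38-fold, 2.42-fold and 1.42-fold in these 3 groups. These are group means with no test.

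**Figure D5:**
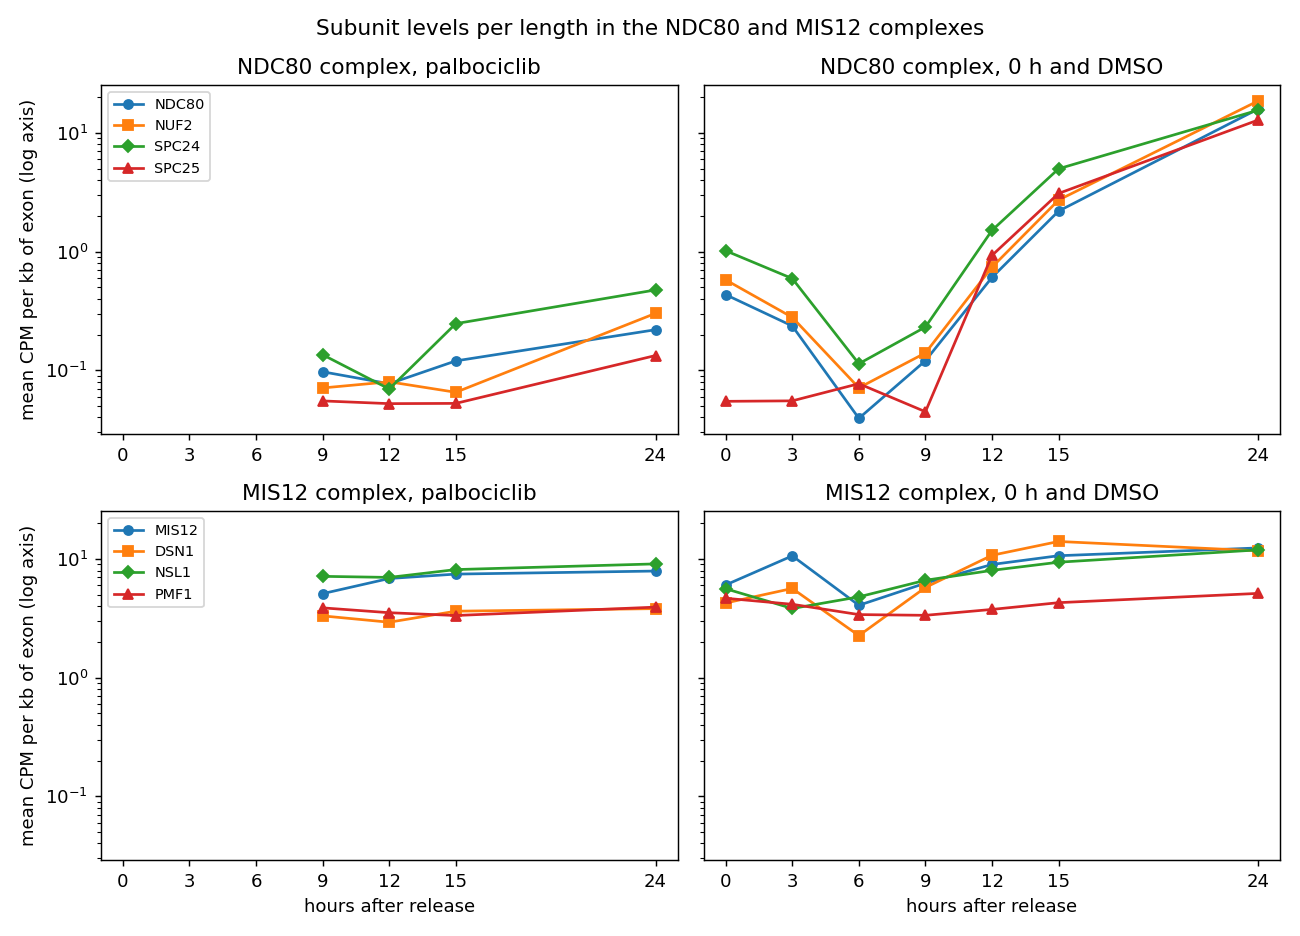
Group mean CPM per kb of exon on a log axis for the subunits of the NDC80 complex (top) and the MIS12 complex (bottom) against hours after release, with palbociclib on the left and 0 h and DMSO on the right. NDC80 complex subunits lie between 0.0393 and 0.114 at DMSO 6 h and between 12.9 and 18.7 at DMSO 24 h, while MIS12 complex subunits stay between 2.26 and 14.1 in all groups.

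Another 25 genes outside the list were counted in the same way. They hold kinetochore genes, among them checkpoint kinases, and genes with wider roles such as CDK1 and RBBP4. With palbociclib 4 of 25 were lower than with DMSO at 9 h (1.08% of all tested genes), 18 at 12 h (4.81%) and 22 at 15 h (8.79%). At 24 h 21 were lower (12.3%), and the median log2 fold change of the 25 was -2.26. At 24 h the 3 with the largest fold changes were AURKB, the kinase of the passenger complex (-7.10 ± 0.31, adjusted p = 1.53e-18), KIF2C, a microtubule depolymerase (-6.98 ± 0.25, adjusted p = 1.52e-20), and PLK1, a mitotic kinase (-6.65 ± 0.19, adjusted p = 9.87e-23). With DMSO, 23 of 25 were higher at 24 h than at 0 h (36.7% of all tested genes) and 1, BOD1, was lower (38.9%).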

How the data were processed

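Poly(A) RNA of 31 MCF10A libraries was sequenced as 75 nt single-end reads, per the labels' protocols. The submitters' processing notes name FastQC 0.11.3, TopHat2 2.1.1, Bowtie2 2.2.9, Subread 1.5.1 and GRCh38.p7. Per the file headers, the authors counted reads over GENCODE 25 exons, grouped by gene name, with featureCounts 1.5.1, and set no option for strand, multi-mapping or overlapping reads. The deposited values are raw counts per gene and library. Reads that fall on 2 genes, on either strand, are left out by the tool's default.

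Groups were taken from the labels. In R 4.3.3, edgeR 4.0.16 fitted 1 quasi-likelihood model by group to all 31 libraries (TMM scaling, filterByExpr, 20 residual degrees of freedom, 15787 genes), with Benjamini-Hochberg adjustment over all of them. The call threshold was an adjusted p of 0.05. The standard error is the log2 fold change divided by the square root of F. The common biological coefficient of variation was 6.55%, and replicates differed beyond counting noise in every group (chi-square per degree of freedom 3.09 to 16.05), so no library was a copy of another. Counts of reads limit the precision of the lowest genes, and the smallest summed count of a member in a group was 4. Alternatives were DESeq2 1.42.0, other scaling, no filter on low counts, each comparison's own libraries, a replicate block and leaving out each library. A further alternative left out replicate 3 of DMSO 24 h and of the 4 palbociclib groups. The scripts were tested on simulated data.

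The 39 genes, the 25 further genes and the tests were chosen with earlier results of these data known. The comparison of palbociclib at 24 and 15 h was added after the values had been seen. Values in every library are given, in each role, for the genes with the largest and the smallest absolute fold change between palbociclib and DMSO at 24 h, and for other genes a sentence turns on. Promoter letters are from RefSeq on GRCh38.p14. No sequence was at hand for 7 genes (BIRC5, BUB3, CENPH, CENPL, CENPM, KNTC1 and MIS18A).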

Additional observations from a re-analysis of the deposited data

Results flagged for a closer look

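The drug effect, meaning the log2 fold change of palbociclib over DMSO at the same time, differed between times by a test of the difference itself in edgeR's quasi-likelihood model. Between 9 and 15 h it became more negative in 28 of 39 genes and more positive in 0. The differences were -5.91 for SPC25, -5.26 for BIRC5 and -5.15 for CENPA. All of these rest on few reads with palbociclib at 15 h, so their sizes are limited by depth. Between 15 and 24 h it became more negative in 7 genes and more positive in 1. The differences were -2.06 for CENPF, -1.93 for NDC80, -1.91 for INCENP, -1.37 for CENPW, -1.11 for CDCA8, -0.70 for CENPL and -0.49 for BUB3. For CENPU the difference was 1.04. Both differences share the 15 h libraries, and those at 24 h rest on 2 libraries in each group.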

How the results depend on the processing

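No called gene reversed under any alternative. Of the medians over the 39 genes, 69 of 233 alternative values moved by more than the spread between replicates, and the median at DMSO 9 h against 0 h (0.039) changed sign with library totals (-0.034) and without DMSO 9 h replicate 2 (-0.163). The counts of lower genes with palbociclib against DMSO at 12, 15 and 24 h stayed within 1.5 times of those reported in every alternative, with 34 to 36 at 24 h when single libraries were left out. Without the filter on low counts, 8 genes were lower with palbociclib than with DMSO at 9 h, and 0 were lower at DMSO 15 h against 0 h, at DMSO 24 h against DMSO 15 h and at palbociclib 24 h against palbociclib 15 h. With each comparison's own libraries these 3 counts were 0, 2 and 0. RLE factors and DESeq2 each gave 0 lower at DMSO 15 h against 0 h, DESeq2 gave 0 more positive drug effects from 15 to 24 h, and library totals gave 3 higher at DMSO 3 h against 0 h. Without replicate 3 of DMSO 24 h and of the 4 palbociclib groups, 3 were lower with palbociclib than with DMSO at 9 h, 0 lower at DMSO 24 h and 4 at palbociclib 24 h against 0 h. The drug effect from 15 to 24 h then became more positive in 0 and more negative in 3, and palbociclib 24 h against 15 h gave 7 higher and 0 lower.

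Leaving out single libraries gave 2 to 4 lower at DMSO 12 h, 0 to 1 at DMSO 15 h, 0 to 1 at DMSO 24 h and 4 to 8 at palbociclib 24 h, all against 0 h. It gave 0 to 1 more positive and 3 to 7 more negative drug effects from 15 to 24 h, and 9 to 13 higher and 0 to 1 lower at palbociclib 24 h against 15 h. Where a 24 h group keeps 1 library, that library is assumed to vary like the other groups. The cause of these changes was not tested beyond the fewer libraries or other genes in each fit.

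The replicate numbers were not treated as pairing the libraries. Among 0 h and DMSO 3 to 15 h, replicate 2 scored 12.0 to 24.8 and replicate 3 -18.5 to -7.51 on the main within-group axis, a hint from the data and not from the labels. Deviations of same-numbered palbociclib and DMSO libraries correlated at -0.249 to 0.113 at 9 to 15 h and at 0.297 at 24 h. With the replicate number as a block, 6 genes were lower with palbociclib than with DMSO at 9 h, 23 were lower at DMSO 6 h and 21 at palbociclib 9 h against 0 h, 32 were higher at DMSO 24 h than at DMSO 15 h, and 9 drug effects became more negative from 15 to 24 h; the other counts were as reported.

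With library totals as the scale, the median log2 fold change of all genes against 0 h lay between -0.271 and -0.143, against -0.123 to -0.056 with TMM, so small fold changes against 0 h carry that uncertainty. Genes with a few reads per library, such as SPC25, CENPA, HJURP and BIRC5 with palbociclib, have fold changes whose size is limited by depth.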

Other observations

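The share of CENPF in the summed CPM of the 39 genes exceeded that in starved cells with DMSO at 24 h alone. It made up 3.63% and 2.62% of the sum in the palbociclib 24 h libraries and 28.1% and 24.2% in the DMSO 24 h libraries, against 5.26% to 8.24% at 0 h. In the other groups it was at most 5.19%, and lowest with palbociclib at 12 h, at 0.792%.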
